A study of Mus musculus with 15 samples.

Results

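The 8 tendon cell genes described here are Tnmd, Kera, Fmod, Chad, Comp, Thbs4, Scx and Mkx, chosen by name from 55416 measured genes. They were followed in RNA of the tibialis anterior, the muscle along the front of the shin that ends in a long tendon, from male C57BL/6 (C57BL/6NCrlOri) mice that were 6 to 8 weeks old at the start. Of the 4 groups, the 3 with a tumour had received KrasIKKaL cells into the trachea. The IgG group (n = 4 libraries) was given rat IgG2b, an isotype antibody without a mouse target, which the treatment label spells anti-IgG. The anti-PD-L1 group (n = 3) was given 200 µg per kg of an antibody that binds PD-L1, a ligand that holds T cells in check. The anti-CD8a group (n = 3) was given 200 µg of an antibody against CD8a, a coreceptor of cytotoxic T cells. Both of these antibodies were given by injection into the abdomen 3 times a week. The control group (n = 5) had no tumour, and its labels name no antibody. In each comparison with control, tumour and antibody therefore changed together and cannot be told apart. Nothing in the labels ties a library to 1 mouse, so p-values measure the spread between libraries, which may be technical.

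Tendon is built by fibroblast-like tendon cells that lay down parallel collagen fibrils and bind them with proteoglycans and thrombospondins. The transcription factors Scx, of the basic helix-loop-helix class, and Mkx, of the homeobox class, act early in the making of these cells in mice, and Tnmd is a membrane protein of the more mature cell. Kera (keratocan), Fmod (fibromodulin) and Chad (chondroadherin) are leucine-rich repeat proteins of the matrix, and Comp and Thbs4 are thrombospondins that bind collagen. None of these genes is made by tendon alone: Kera is best known from the cornea, Chad and Comp from cartilage, and Fmod and Thbs4 from connective tissue more widely. In a dissected muscle they can be read from its tendon, its inner tendon sheet and its connective tissue. Which cells gave the reads was not tested.

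The stretch before the start of a gene is where many of its regulators bind, and 3 such stretches are shown for members with a deep, a middle and a small difference between groups. They run from 250 to 51 bases before the RefSeq start (GRCm38.p6), read 5′ to 3′ on the strand of the gene, with matches to CANNTG in capitals. CANNTG is the E-box, the letters bound by the basic helix-loop-helix class to which Scx belongs, and it reads the same on both strands. Tnmd lies at chrX:133850758-133850957 on the plus strand, Fmod at chr1:134037004-134037203 on the plus strand and Thbs4 at chr13:92794869-92795068 on the minus strand.
Tnmd: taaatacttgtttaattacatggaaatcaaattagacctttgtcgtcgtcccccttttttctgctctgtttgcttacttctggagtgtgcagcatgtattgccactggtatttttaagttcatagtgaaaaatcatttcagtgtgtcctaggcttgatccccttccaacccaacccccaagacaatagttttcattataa
Fmod: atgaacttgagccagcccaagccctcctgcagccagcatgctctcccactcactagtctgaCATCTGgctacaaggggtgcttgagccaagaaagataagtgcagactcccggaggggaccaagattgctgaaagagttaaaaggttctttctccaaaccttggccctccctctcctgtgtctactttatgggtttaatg
Thbs4: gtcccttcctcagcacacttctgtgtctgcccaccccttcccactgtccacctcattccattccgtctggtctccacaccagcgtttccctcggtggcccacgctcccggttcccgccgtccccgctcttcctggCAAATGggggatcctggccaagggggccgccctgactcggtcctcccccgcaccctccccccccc
The Tnmd stretch held no match. The Fmod stretch held 1 match, CATCTG, which is CAGATG on the other strand, and the Thbs4 stretch held 1 match, CAAATG. Windows were in the RefSeq table for 5 of the 8 members, and those of Kera and Chad held no match. Over 32851 windows of this length in the mouse, 59.0% held at least 1 E-box and 11.95% held CAGATG on either strand. These matches describe letters and show no binding.

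Levels are given in CPM, each count relative to its library's TMM-scaled total, and in TPM where genes are compared with each other, since TPM allows for length. The threshold for a call was an adjusted p of 0.05 in edgeR's quasi-likelihood test over 14372 genes, and all 8 members passed its filter on low counts. Library totals were 15894822 to 22459370 expected counts, so that 3 counts, the limit that a count of 0 allows, came to 0.129 to 0.189 CPM. Muscle fibre genes, 12 in the list, summed to between 74705 and 118569 CPM in IgG, between 65267 and 110443 in anti-PD-L1, between 105279 and 119668 in anti-CD8a and between 103882 and 145345 in control. On the first principal component, which held 56.1% of the variance, IgG replicate 2 lay lowest of its group at 38.0, against 77.4 to 92.3 for the other IgG libraries. Replicate 2 of anti-PD-L1 lay highest of its group at 60.5, against 4.98 and 22.9. Results with both set aside are given where a call changed.

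Fmod and Thbs4 were the most abundant members, while the least abundant was Mkx in control muscle and Kera in IgG muscle. In control muscle the TPM averaged 28.0 ± 10.3 for Fmod and 25.3 ± 7.88 for Thbs4 (SD, n = 5). Tnmd followed at 6.39 ± 3.21 TPM, Chad at 5.93 ± 3.72 and Scx at 4.36 ± 0.80. Kera averaged 2.65 ± 0.99 TPM and Comp 2.33 ± 0.96. Mkx was lowest at 0.34 ± 0.13 TPM. The ranges of Fmod and Thbs4 overlapped, and so did those of each pair of neighbours from Tnmd down to Comp. In IgG muscle the order was another one. Thbs4 led at 18.7 ± 2.54 TPM and Fmod followed at 10.2 ± 3.33 (SD, n = 4). Scx stood next at 3.23 ± 1.01 TPM, above Chad at 0.89 ± 0.44, Comp at 0.62 ± 0.28, Tnmd at 0.54 ± 0.26 and Mkx at 0.46 ± 0.09. Kera was last at 0.09 ± 0.08 TPM. The ranges of Chad, Comp, Tnmd and Mkx overlapped, while Thbs4, Fmod, Scx and Kera each stood apart from their neighbours.

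**Figure D1:**
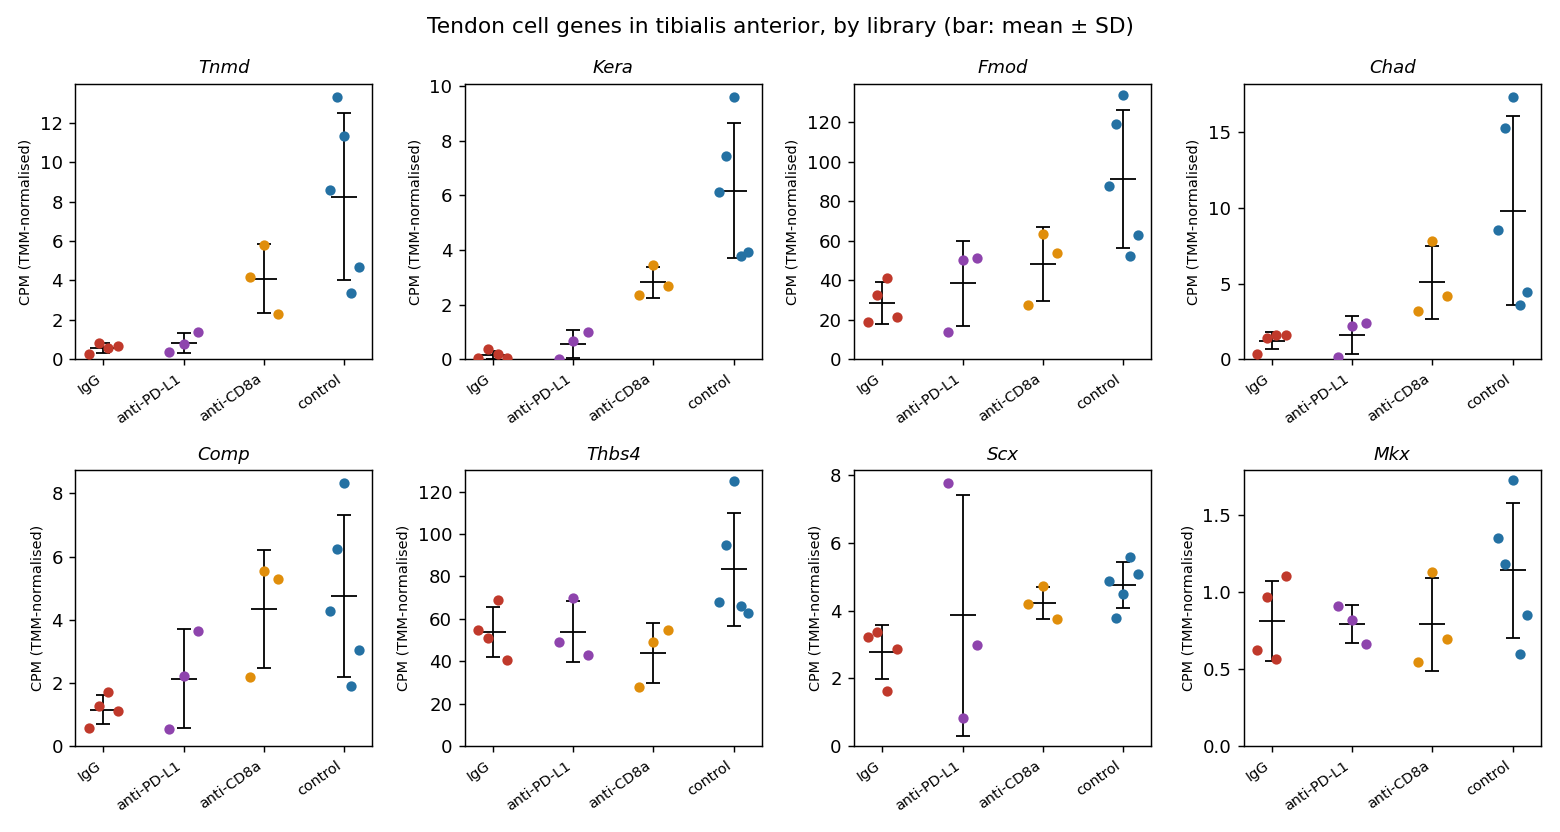
Level of each tendon cell gene in TMM-normalised CPM (vertical axis, linear, each panel with its own scale), with 1 point per library, a horizontal tick for the group mean and bars of 1 SD, for IgG (n = 4), anti-PD-L1 (n = 3), anti-CD8a (n = 3) and control (n = 5). For Tnmd and Kera every IgG and anti-PD-L1 point lies below every anti-CD8a and control point, while the Thbs4 and Mkx points of IgG and control overlap.

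The first comparison, IgG against control, asks what a tumour with an isotype antibody went along with. Of the 8 members, 6 fell, none rose and 2 did not pass the test, where 28.4% of all genes tested were called lower and 30.2% higher. With upper-quartile scaling 5526 genes were called lower and 3239 higher, against 4075 and 4335 here, and none of the called members changed direction. The median log2 fold change of the members was -1.85, against -0.02 over all genes tested. The deepest falls were those of Kera and Tnmd, and the shallowest called fall was that of Thbs4. The share of counts from mitochondrial genes lay between 12.8% and 16.7% in IgG, between 11.1% and 14.4% in anti-PD-L1, between 20.2% and 23.1% in anti-CD8a and between 17.6% and 23.0% in control. It was thus lower, without overlap, in the groups where Tnmd and Kera were low, and its part in the members' differences was not tested. In whole muscle, fewer tendon cells and less RNA per cell cannot be told apart, nor can a smaller share of tendon in the dissected piece.

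Tnmd (ENSMUSG00000031250), the membrane protein of mature tendon cells, was at 0.248, 0.843, 0.567 and 0.672 CPM in the 4 IgG libraries, against 8.58, 13.3, 11.3, 3.35 and 4.68 CPM in the 5 control libraries. Its raw counts were 4 to 14 in IgG and 62 to 226 in control. The groups did not overlap, and every control library lay above every IgG library. Tnmd fell by 3.80 ± 0.51 on the log2 scale (SE, adjusted p = 1.53e-05), a 13.9-fold lower level.

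Kera (ENSMUSG00000019932), a proteoglycan core protein that spaces collagen fibrils, had counts of only 1, 6, 3 and 1 in the IgG libraries. Those counts came to 0.0621, 0.361, 0.189 and 0.0611 CPM in IgG, against 6.11, 7.43, 9.60, 3.79 and 3.92 CPM in control. The groups did not overlap. In 2 of the 4 IgG libraries the level was under the floor of 3 counts. Kera fell by 5.13 ± 0.65 on the log2 scale (SE, adjusted p = 1.03e-05). The summed counts were 11 in IgG and 560 in control, and per count sequenced the control level was 37.1 times the IgG level, with a 95% counting interval of 20.6 to 74.7.

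Fmod (ENSMUSG00000041559), which controls the assembly of collagen fibrils, is abundant enough that counting error is small beside the spread. It was at 18.7, 32.7, 41.3 and 21.3 CPM in IgG, against 87.6, 119, 134, 52.3 and 62.9 CPM in control. The highest IgG library stayed below the lowest control library. Fmod fell by 1.68 ± 0.39 (SE, adjusted p = 0.00184).

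Chad (ENSMUSG00000039084), a leucine-rich protein that binds collagen and cells, was at 0.372, 1.38, 1.58 and 1.59 CPM in IgG, against 8.52, 15.3, 17.4, 3.57 and 4.46 CPM in control. IgG replicate 1 stood below its group, and the groups did not overlap. The fall was 2.99 ± 0.63 on the log2 scale (SE, adjusted p = 0.00084). Chad lies inside Acsf2, a gene of fatty acid metabolism on the other strand, with no shared exonic bases. Acsf2 was at 9.37 ± 9.43 CPM in IgG and 1.73 ± 0.57 CPM in control, and the strand setting of the counting is not given in the sources used here.

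Comp (ENSMUSG00000031849), a thrombospondin that joins collagen fibrils, was at 0.559, 1.26, 1.70 and 1.10 CPM in IgG, against 4.26, 6.25, 8.34, 1.89 and 3.03 CPM in control. The gap was narrow, with 1.70 CPM the highest IgG value and 1.89 CPM the lowest control value. Comp fell by 2.03 ± 0.53 (SE, adjusted p = 0.00392).

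Thbs4 (ENSMUSG00000021702), the other thrombospondin of the set, was at 54.7, 50.9, 68.7 and 40.7 CPM in IgG, against 68.1, 94.8, 125, 66.0 and 62.9 CPM in control. The groups overlapped, since IgG replicate 3 lay above 3 of the control libraries. The fall was 0.63 ± 0.24 (SE, adjusted p = 0.0355). That call was lost without control replicate 2 or 3, without IgG replicate 1, 2 or 4, with both libraries numbered 2 set aside and on the deposited TPM, where the adjusted p was 0.0586 to 0.163.

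The transcription factors of tendon cells did not pass the test. Scx (ENSMUSG00000034161) was at 3.23, 3.37, 1.64 and 2.87 CPM in IgG, against 4.88, 3.77, 4.49, 5.57 and 5.08 CPM in control. The groups did not overlap, as in 6 of the 8 members, where 23.4% of all genes tested were lower without overlap. Its difference was -0.78 ± 0.41 in log2 (SE, adjusted p = 0.118). It passed when only IgG and control entered the fit (adjusted p = 0.00979), without anti-PD-L1 replicate 1 or 2, with both libraries numbered 2 set aside and with upper-quartile scaling (adjusted p = 0.0468). Under upper-quartile scaling its value was -1.03 where the median over all genes was -0.27. Scx lies within Bop1, a gene of ribosome assembly on the other strand, with no shared exonic bases, and Bop1 was at 26.9 ± 4.35 CPM in IgG and 18.9 ± 1.70 CPM in control.

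Mkx (ENSMUSG00000061013) was at 0.621, 0.963, 0.567 and 1.10 CPM in IgG, against 1.35, 1.18, 1.73, 0.595 and 0.847 CPM in control. These are 9 to 18 counts in IgG and 11 to 30 in control. Mkx overlaps AC148004.2, a gene on the same strand, with 201 shared exonic bases. How reads from these bases were shared out was not tested. The groups overlapped, and the log2 difference of -0.47 ± 0.35 was not detectable at this depth (SE, adjusted p = 0.251).

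**Figure D2:**
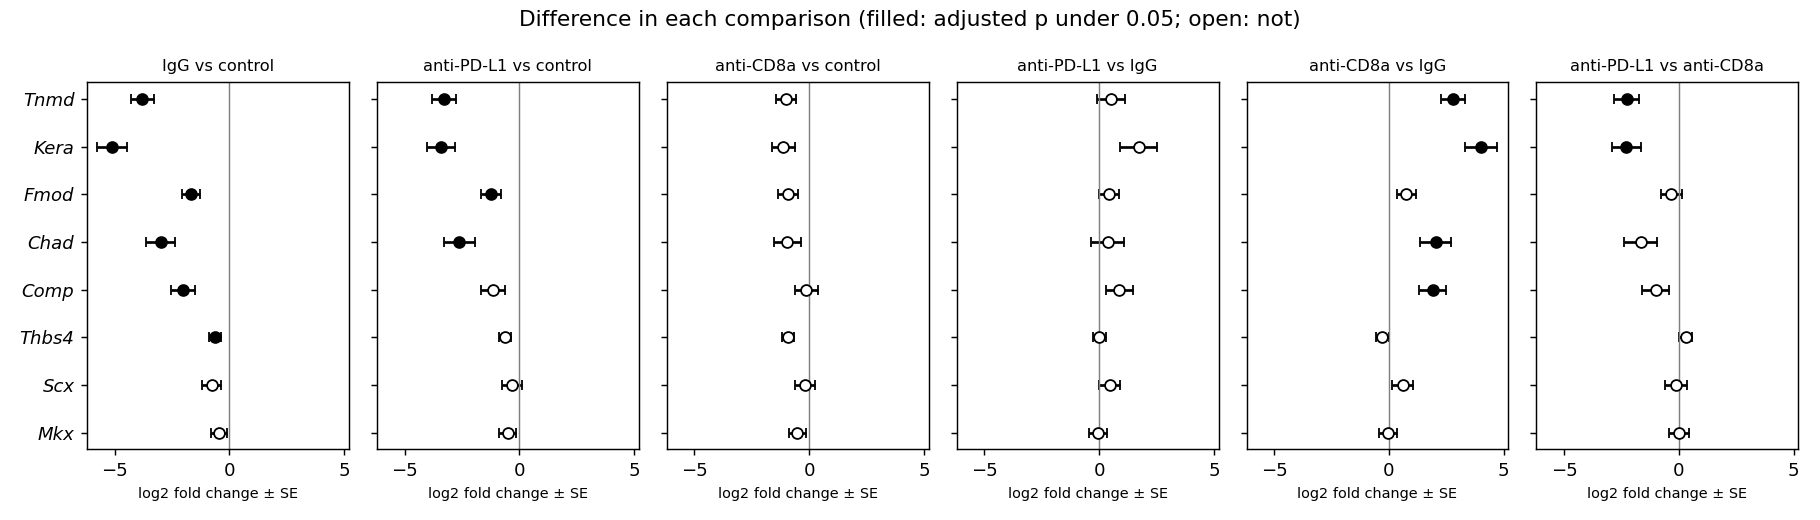
Log2 fold change (horizontal axis, first-named group minus second) of each tendon cell gene in the 6 comparisons, with bars of 1 SE, filled where the adjusted p was under 0.05 and open where it was not. In IgG against control 6 points are filled, all left of 0, and in anti-CD8a against IgG 4 points are filled, all right of 0.

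Anti-PD-L1 against control used the same 5 control libraries. In this comparison 4 members fell, none rose and 4 did not pass, where 13.9% of genes tested were called lower and 20.8% higher. The members that fell, Tnmd, Kera, Chad and Fmod, did not overlap between groups, where 16.8% of genes tested were lower without overlap. Tnmd was at 0.381, 0.771 and 1.36 CPM in anti-PD-L1, below each control value given above, and fell by 3.28 ± 0.53 (SE, adjusted p = 0.000368). Kera had 0, 16 and 23 counts, which came to 0, 0.686 and 1.01 CPM, and fell by 3.41 ± 0.60 (SE, adjusted p = 0.000651). The count of 0 in anti-PD-L1 replicate 1 allows a level of up to 0.143 CPM.

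Chad was at 0.143, 2.19 and 2.42 CPM in anti-PD-L1 and fell by 2.61 ± 0.67 (SE, adjusted p = 0.00777). Fmod was at 13.8, 50.2 and 51.3 CPM, with 52.3 CPM the lowest control value. Fmod fell by 1.24 ± 0.43 (SE, adjusted p = 0.0341), and that call was lost on TPM, without control replicate 2 or 3, without anti-PD-L1 replicate 1 or 2 and with both libraries numbered 2 set aside, where the adjusted p was 0.0505 to 0.123. Comp was at 0.524, 2.23 and 3.65 CPM, which overlapped with control, and it stood at -1.14 ± 0.54 in log2 (SE, adjusted p = 0.110), while without anti-PD-L1 replicate 3 it passed (adjusted p = 0.0395). Thbs4 was at 49.2, 70.1 and 42.8 CPM, which overlapped too, and stood at -0.63 ± 0.27 (SE, adjusted p = 0.0803). It passed with upper-quartile scaling, with DESeq2 and with no filter on low counts, where the adjusted p was 0.0327 to 0.0475.

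Scx and Mkx overlapped with control in this comparison. Scx was at 7.77, 0.814 and 2.99 CPM in the anti-PD-L1 libraries, so that replicate 1 was the highest and replicate 2 the lowest of all 15 libraries. Tnmd, Kera, Fmod, Chad and Comp were all lowest of this group in replicate 1. Scx stood at -0.31 ± 0.44 in log2 (SE, adjusted p = 0.612), and without replicate 1 at -1.32 with an adjusted p of 0.0202. Without replicate 2 it stood at 0.18. Mkx was at 0.906, 0.814 and 0.660 CPM, a difference of -0.51 ± 0.37 in log2 (SE, adjusted p = 0.298).

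Anti-CD8a against control called none of the members, although all 8 values lay below 0. In this comparison 0.00696% of genes were called lower and 0.00696% higher, which is 1 gene each way. The median log2 fold change of the members was -0.92, against 0.01 over all genes tested. With edgeR, 4 members had an unadjusted p under 0.05, and DESeq2 also called none. The share of all genes tested with such a p was not computed, so this count has nothing to be set against. Tnmd was at 4.19, 5.80 and 2.28 CPM in anti-CD8a, of which 2 lie within the control range, and stood at -1.01 ± 0.45 in log2 (SE, adjusted p = 0.609). Kera was at 2.34, 3.44 and 2.67 CPM in anti-CD8a, below the lowest control value of 3.79 CPM, with -1.13 ± 0.50 (SE, adjusted p = 0.609).

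Fmod was at 27.3, 63.2 and 54.0 CPM in anti-CD8a, of which 2 lie within the control range, and stood at -0.92 ± 0.42 in log2 (SE, adjusted p = 0.624). Thbs4, at 27.7, 49.2 and 54.6 CPM, did not overlap with control, and stood at -0.93 ± 0.27 in log2 (SE, adjusted p = 0.361). Kera and Thbs4 were the members without overlap, where 4.38% of genes tested were lower without overlap. Chad was at 3.21, 7.84 and 4.21 CPM, Comp at 2.18, 5.53 and 5.30 CPM, Scx at 4.19, 4.72 and 3.76 CPM and Mkx at 0.545, 1.13 and 0.693 CPM, each overlapping with control. Anti-CD8a replicate 2 was highest of its group in 7 of the 8 members, all but Thbs4.

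Anti-PD-L1 against IgG set the 2 groups in which Tnmd and Kera were lowest beside each other. None of the members was called, where 1.54% of genes were called lower and 3.96% higher, and the groups overlapped in all 8 members, where 4.48% of genes tested were lower and 7.41% higher without overlap. The unadjusted p was under 0.05 in 1 member, Kera, which stood at 1.72 ± 0.81 in log2 (SE, adjusted p = 0.184). For all genes tested the share with such a p was not computed. DESeq2 also called none of the members. The summed Kera counts were 39 in anti-PD-L1 and 11 in IgG. Values for the others were 0.53 ± 0.60 for Tnmd, 0.43 ± 0.43 for Fmod, 0.37 ± 0.72 for Chad and 0.89 ± 0.59 for Comp (log2, SE). Thbs4 stood at 0.01 ± 0.28, Scx at 0.47 ± 0.46 and Mkx at -0.04 ± 0.39. A p that misses the threshold does not show that the groups were alike.

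Anti-CD8a against IgG compares 2 groups of tumour-bearing mice that differ in antibody. Here 4 of the 8 members rose, none fell and 4 did not pass, where 23.2% of genes tested were called higher and 24.8% lower. The median log2 fold change of the members was 1.33, against 0.02 over all genes tested. Kera rose by 4.01 ± 0.70 (SE, adjusted p = 0.00033), with 2.34 to 3.44 CPM in anti-CD8a against 0.0611 to 0.361 CPM in IgG. Tnmd rose by 2.79 ± 0.54 (SE, adjusted p = 0.000682), a 6.92-fold higher level, with 2.28 to 5.80 CPM in anti-CD8a against 0.248 to 0.843 CPM in IgG.

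Chad rose by 2.04 ± 0.68 (SE, adjusted p = 0.0216), with 3.21 to 7.84 CPM in anti-CD8a against 0.372 to 1.59 CPM in IgG. Comp rose by 1.90 ± 0.58 (SE, adjusted p = 0.013), with 2.18 to 5.53 CPM in anti-CD8a against 0.559 to 1.70 CPM in IgG. Each of these 4 members, and Scx as well, was without overlap between the groups, where 23.1% of genes tested were higher without overlap. The call of Chad was lost without IgG replicate 1 (adjusted p = 0.0563), without anti-CD8a replicate 2 (adjusted p = 0.102) and on TPM (adjusted p = 0.0533).

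The remaining 4 members were not called. In log2, Fmod stood at 0.76 ± 0.43 (SE, adjusted p = 0.156) and Scx at 0.60 ± 0.46 (SE, adjusted p = 0.297). Thbs4 stood at -0.29 ± 0.28 and Mkx at -0.05 ± 0.40 (log2, SE), and their adjusted p-values were 0.401 and 0.934. For Thbs4 and Mkx the ranges of both groups overlapped.

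Anti-PD-L1 against anti-CD8a called 2 members lower and none higher, where 7.64% of genes tested were called lower and 12.1% higher. Tnmd fell by 2.27 ± 0.55 (SE, adjusted p = 0.0115), with 0.381 to 1.36 CPM in anti-PD-L1 against 2.28 to 5.80 CPM in anti-CD8a. Kera fell by 2.28 ± 0.63 (SE, adjusted p = 0.0194), with 0 to 1.01 CPM in anti-PD-L1 against 2.34 to 3.44 CPM in anti-CD8a. Chad did not overlap either, but its difference of -1.67 ± 0.71 in log2 did not pass (SE, adjusted p = 0.107), except with no filter on low counts (adjusted p = 0.0318). Without overlap were 3 members, where 16.6% of genes tested were lower without overlap. Both calls were lost without anti-CD8a replicate 2, at adjusted p = 0.0528 for Tnmd and 0.0653 for Kera. The call of Kera was also lost without anti-PD-L1 replicate 2 (adjusted p = 0.0552) and when only the 2 groups entered the fit (adjusted p = 0.0716).

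The members did not vary alike within a group, and Tnmd, Kera, Fmod, Chad and Comp correlated most closely with each other. In control, replicate 3 was highest and replicate 4 lowest for Kera, Fmod, Chad, Comp and Mkx. Replicate 3 was also highest for Thbs4. For Tnmd the highest was replicate 2 and the lowest again replicate 4. Among the 5 control libraries the highest CPM was 4.86 times the lowest for Chad, 4.40 times for Comp and 3.97 times for Tnmd. It was 2.90 times for Mkx, 2.56 times for Fmod, 2.54 times for Kera and 1.99 times for Thbs4. Scx varied least, by 1.48 times, and its highest library was control replicate 4, in which Tnmd, Kera, Fmod, Chad, Comp and Mkx were lowest.

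After the mean of each group was taken off, the deviations in log2 CPM of Fmod and Comp correlated at Pearson r = 0.96 over the 15 libraries. The pair of Chad and Comp correlated at 0.94, Fmod and Chad at 0.92 and Tnmd and Chad at 0.85. Scx correlated at -0.65 with Fmod, at -0.64 with Chad and at -0.62 with Kera. Its extremes over the 15 libraries, 7.77 and 0.814 CPM, were those of anti-PD-L1 replicates 1 and 2, and no r was computed without them. In anti-CD8a, replicate 2 was highest for Scx, Fmod, Chad and Kera alike. These correlations describe libraries that share depth and dissection, and have no test. Thbs4 stood between, at 0.64 with Fmod and 0.17 with Tnmd. Mkx correlated at 0.57 with Tnmd, 0.44 with Chad and 0.18 with Kera.

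**Figure D3:**
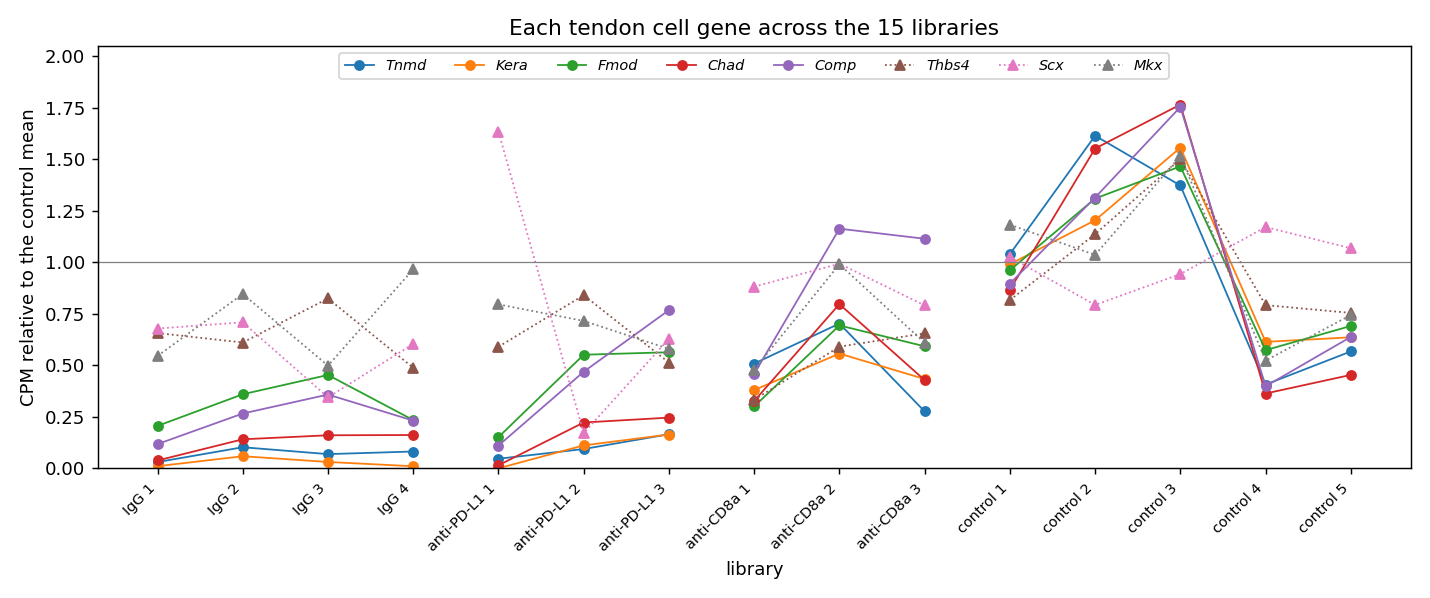
CPM of each tendon cell gene divided by its mean over the 5 control libraries (vertical axis, linear), across the 15 libraries of IgG, anti-PD-L1, anti-CD8a and control, with lines joining the libraries of a group only as a guide to the eye. Tnmd, Kera, Fmod, Chad and Comp are high together in control replicates 2 and 3 and low together in replicates 4 and 5, while Scx (pink triangles) peaks in anti-PD-L1 replicate 1.

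Outside the set, the genes most like the members in these deviations were sought among 11462 genes with a mean of at least 1 CPM. The best of so many genes over 15 libraries can reach a high r without any link, and no r was tested. The closest to Thbs4 was Angptl7, a secreted protein of tendon and eye, at r = 0.94, followed by Ubox5 and Dhrs3, both at 0.86. The closest to Chad was Cilp2, a matrix protein of cartilage and connective tissue, at 0.90, and Cilp2 was second for Comp at 0.87. For Comp the first was Lipe, the hormone-sensitive lipase of fat, at 0.90. Lipe was also second for Chad at 0.89, ahead of Qsox1 at 0.88. For Tnmd they were Klhl9 at 0.89, Mfap4, a protein of elastic fibres, at 0.88 and Col11a1, a fibrillar collagen, at 0.87. The closest to Kera were Shmt1, an enzyme of folate metabolism, at 0.91 and Ltbp4, which binds latent TGF-beta, at 0.90. The closest to Fmod was Acot2, a thioesterase of mitochondria, at 0.87 and to Scx Ormdl1 at 0.92. Mkx, below 1 CPM on average, was not searched.

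The other genes of tendon were read from further lists, which are not specific to tendon either. Of 12 tendon collagens, all fell in IgG against control and 11 fell in anti-PD-L1 against control. Over all genes tested, 28.4% and 13.9% were called lower there. None of the 12 was called in anti-CD8a against control, where only 1 of 14372 genes was called lower, and their median log2 fold change was -0.83. The summed level of the 12 was 36.7 to 74.2 CPM in IgG, 65.6 to 214 in anti-PD-L1, 190 to 456 in anti-CD8a and 586 to 875 in control. Col3a1, a collagen of young and loose fibrils, was at 6.00 ± 3.40 CPM in IgG and 197 ± 36.1 CPM in control (log2 fold change -5.03 ± 0.49, adjusted p = 1.33e-06). Col1a1, a chain of the main tendon collagen, stood at -4.87 ± 0.53 and Col6a3, a collagen around cells, at -3.90 ± 0.55. In anti-CD8a against IgG, 10 of the 12 rose, where 23.2% of all genes tested were called higher. Among them were Col1a1 at 3.95 ± 0.53, Col3a1 at 3.75 ± 0.49 and Col1a2 at 3.08 ± 0.41 (log2, SE). In anti-PD-L1 against IgG, 4 of the 12 rose, where 3.96% of all genes tested were called higher. Among these were Col14a1 at 1.86 ± 0.37, Col6a1 at 1.62 ± 0.34 and Col1a2 at 1.53 ± 0.40. None of the 8 members was called in that comparison.

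Other matrix genes of tendon split. Of 11, 4 fell and 1 rose in IgG against control, where 28.4% of all genes tested were called lower and 30.2% higher. Cilp2 fell by 2.08 ± 0.48 and Tnxb, which binds collagen, by 1.58 ± 0.29, while Angptl7 rose by 1.86 ± 0.49 (log2, SE). Angptl7, the gene most like Thbs4 within groups, was at 116 ± 55.8 CPM in IgG and 32.0 ± 20.3 CPM in control, so the 2 genes moved apart between groups. In anti-CD8a against IgG, Angptl7 fell by 2.13 ± 0.59, Cilp2 rose by 1.43 ± 0.53 and Tnxb rose to 47.1 ± 5.26 CPM, against 19.1 ± 5.34 CPM in IgG. In anti-PD-L1 against IgG, 4 of the 11 rose, where 3.96% of all genes tested were called higher. Among these were Tnxb at 1.36 ± 0.31, Bgn (biglycan) at 1.08 ± 0.24 and Pcolce2 at 1.04 ± 0.27.

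Regulators of tendon cells other than Scx and Mkx went both ways. Of 12 tested, 3 fell and 5 rose in IgG against control, where 28.4% of all genes tested were called lower and 30.2% higher. Smad3, which carries TGF-beta signals, fell by 2.21 ± 0.33 on the log2 scale, with 22.5 ± 11.8 CPM in IgG against 104 ± 21.6 CPM in control. Sox9, a factor of cartilage and of the tendon insertion, rose by 1.89 ± 0.56, and Egr1, an immediate early factor, by 1.69 ± 0.44. In anti-CD8a against IgG, Smad3 rose by 1.82 ± 0.35, and the TGF-beta receptors Tgfbr1 and Tgfbr2 fell by 1.08 ± 0.17 and 1.08 ± 0.20. In anti-PD-L1 against IgG none of the 12 was called. The smallest p was that of Gdf5, a growth factor of joints and tendon, with -1.76 ± 0.61 (adjusted p = 0.0885). Gdf5 was low, at 1.43 ± 0.73 CPM in IgG, 0.42 ± 0.11 in anti-PD-L1, 0.20 ± 0.19 in anti-CD8a and 0.08 ± 0.07 in control. It rose by 4.14 ± 0.66 in IgG against control (adjusted p = 7.51e-05) and fell by 2.84 ± 0.69 in anti-CD8a against IgG (adjusted p = 0.00346).

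In IgG against control, relatives of the members, from the families of leucine-rich proteoglycans, thrombospondins and others, were lower more often than higher. Of 9 tested, 6 fell and 2 rose there, where 28.4% of all genes tested were called lower and 30.2% higher. Lum (lumican), from the family of Kera and Fmod, fell by 2.66 ± 0.35, and Ogn (osteoglycin) fell by 1.82 ± 0.29. The thrombospondins split. Thbs1, which can activate TGF-beta, rose by 1.90 ± 0.39 and Thbs2 rose by 1.11 ± 0.20. Thbs3 fell by 1.62 ± 0.35, the direction of Comp and Thbs4. In anti-CD8a against IgG, Lum rose by 2.25 ± 0.38, Thbs3 rose by 1.47 ± 0.38 and Thbs1 fell by 1.98 ± 0.47. In anti-PD-L1 against IgG, Ogn rose by 1.79 ± 0.32 and Lum by 1.69 ± 0.37.

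The muscle fibre's own genes of the junction with tendon were 4. In IgG against control, 2 fell and 1 rose, where 28.4% of all genes tested were called lower and 30.2% higher. Tigd4 fell by 1.57 ± 0.42 and Col22a1, a collagen of that junction, by 1.14 ± 0.28, while Slc24a2 rose by 1.25 ± 0.30. In anti-CD8a against IgG, Tigd4 rose by 1.45 ± 0.46 and Col22a1 by 1.16 ± 0.31, and Slc24a2 fell by 0.94 ± 0.34. In anti-PD-L1 against IgG none was called, and the smallest p was that of Slc24a2 (-0.92 ± 0.34, adjusted p = 0.103). The summed level of the 4 was 9.93 to 19.2 CPM in IgG, 7.48 to 18.4 in anti-PD-L1, 19.1 to 34.8 in anti-CD8a and 21.9 to 33.3 in control.

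Interstitial fibroblast genes moved with the members in some comparisons and not in others. All 11 fell in IgG against control and 3 fell in anti-PD-L1 against control (median log2 fold change -2.16 and -0.51). Over all genes tested, 28.4% and 13.9% were called lower there. The sums were 153 to 213 CPM in IgG, 231 to 467 in anti-PD-L1, 339 to 393 in anti-CD8a and 383 to 581 in control. In IgG against control, Pi16 fell by 3.77 ± 0.48, Clec3b by 3.31 ± 0.44 and Cd248 by 3.20 ± 0.47. In anti-CD8a against IgG, 9 of the 11 rose, where 23.2% of all genes tested were called higher. In anti-PD-L1 against IgG 7 rose, where that share was 3.96% and none of the 8 members was called. Among these 7 were Pi16 at 3.26 ± 0.50, Clec3b at 2.51 ± 0.47 and Dpp4 at 2.10 ± 0.39. The part of fibroblast content in the members' differences was not tested.

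Cartilage and bone genes were low in every library. Of 10 cartilage genes 1 passed the filter, Col9a1, which fell by 2.61 ± 0.52 in IgG against control and rose by 2.93 ± 0.55 in anti-CD8a against IgG. The 10 summed to between 0.305 and 0.843 CPM in IgG, between 0.524 and 1.06 in anti-PD-L1, between 1.73 and 3.70 in anti-CD8a and between 2.19 and 3.08 in control. Matn1 and Snorc were at 0 in every library. Of 6 bone genes none passed, and Bglap and Mepe were at 0 in every library. The 6 summed to at most 0.183 CPM in IgG, 0.176 in anti-PD-L1, 0.218 in anti-CD8a and 0.561 in control.

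Nerve, vessel, fat and immune markers were read in the same libraries. Of 8 Schwann cell genes, 6 fell in IgG against control, among them S100b at -2.80 ± 0.49 in log2, with sums of 41.2 to 121 CPM in IgG, 61.6 to 123 in anti-PD-L1, 53.4 to 167 in anti-CD8a and 113 to 341 in control. Of 8 macrophage genes, 7 fell and 1 rose in IgG against control. In anti-PD-L1 against IgG 7 rose, where 3.96% of all genes tested were called higher. The macrophage sums were 44.6 to 72.3 CPM in IgG, 105 to 240 in anti-PD-L1, 44.2 to 94.8 in anti-CD8a and 61.9 to 101 in control. Of 8 endothelial genes 3 fell, and of 8 genes of pericytes and smooth muscle 2 fell and 1 rose, in IgG against control, shares near the 28.4% of all genes called lower there. Endothelial sums spanned 142 to 237 CPM in IgG, 128 to 232 in anti-PD-L1, 151 to 267 in anti-CD8a and 210 to 309 in control. Those of pericytes and smooth muscle spanned 531 to 738 CPM in IgG, 495 to 635 in anti-PD-L1, 670 to 900 in anti-CD8a and 704 to 892 in control. Of 5 adipocyte genes tested none was called in IgG against control. In anti-PD-L1 against control 4 of them rose, where 20.8% of all genes tested were called higher. The adipocyte sums spanned 1.58 to 140 CPM in IgG, 22.4 to 266 in anti-PD-L1, 11.9 to 27.3 in anti-CD8a and 3.74 to 32.4 in control. Of the 12 muscle fibre genes, 6 fell in IgG against control, with Casq1, a calcium store protein, at -2.90 ± 0.43 in log2 (SE). The part of these cell types, of cartilage and of bone in the members' differences was not tested.

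The tendon cell genes were also set against connective tissue counts of the same library, which takes scaling between libraries out of the value. Per 1000 counts of the 11 interstitial fibroblast genes, Tnmd had 1.57 to 4.12 counts in IgG, 1.23 to 3.35 in anti-PD-L1, 6.11 to 14.8 in anti-CD8a and 6.77 to 34.8 in control. Kera had 0.374 to 1.69 counts in IgG, 0 to 2.97 in anti-PD-L1, 6.91 to 8.74 in anti-CD8a and 6.75 to 19.4 in control. Both members thus stayed without overlap between IgG and control, and between anti-PD-L1 and control, when set against fibroblast counts. Fmod overlapped, with 118 to 270 in IgG and 105 to 312 in control. So did Chad, with 2.35 to 10.3 in IgG and 7.20 to 39.9 in control, and Comp, with 3.52 to 11.1 in IgG and 3.82 to 16.4 in control. Thbs4 had 239 to 449 in IgG and 108 to 248 in control, which just overlapped. Scx overlapped as well, with 10.7 to 20.4 in IgG and 8.74 to 11.2 in control. Mkx had 3.70 to 6.74 in IgG and 1.20 to 3.38 in control, higher in IgG without overlap. The fibroblast sum itself was 153 to 213 CPM in IgG and 383 to 581 CPM in control, so an unchanged gene rises against it. The share of all genes tested without overlap on this ratio was not computed, so the members have nothing to be set against.

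Against the 12 tendon collagens the picture was another. Per 1000 collagen counts, Tnmd had 6.77 to 15.2 counts in IgG and 5.72 to 21.4 in control, which overlapped. Kera had 1.38 to 4.87 in IgG and 5.53 to 11.9 in control, which did not. Fmod had 442 to 1025 in IgG and 88.7 to 191 in control, and Thbs4 had 687 to 1707 in IgG and 88.6 to 152 in control. Scx had 40.7 to 88.0 in IgG and 5.12 to 9.51 in control, Comp 15.2 to 42.3 in IgG and 3.23 to 10.0 in control, and Mkx 13.0 to 24.9 in IgG and 1.02 to 1.97 in control. Chad overlapped, with 10.2 to 39.1 in IgG and 6.09 to 24.5 in control. Relative to collagen counts, Fmod, Thbs4, Scx, Comp and Mkx were therefore higher in IgG and Kera lower. The collagen sum itself was 36.7 to 74.2 CPM in IgG and 586 to 875 CPM in control. Any gene that fell less than the collagens, or did not change, stands higher in this ratio. In CPM none of the members was called higher in IgG. The share of all genes that stand higher in this ratio was not computed. These ratios show unequal change within a library. How much of the differences comes from tendon content of the dissected muscle was not tested, and no value of tendon mass is in the labels.

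**Figure D4:**
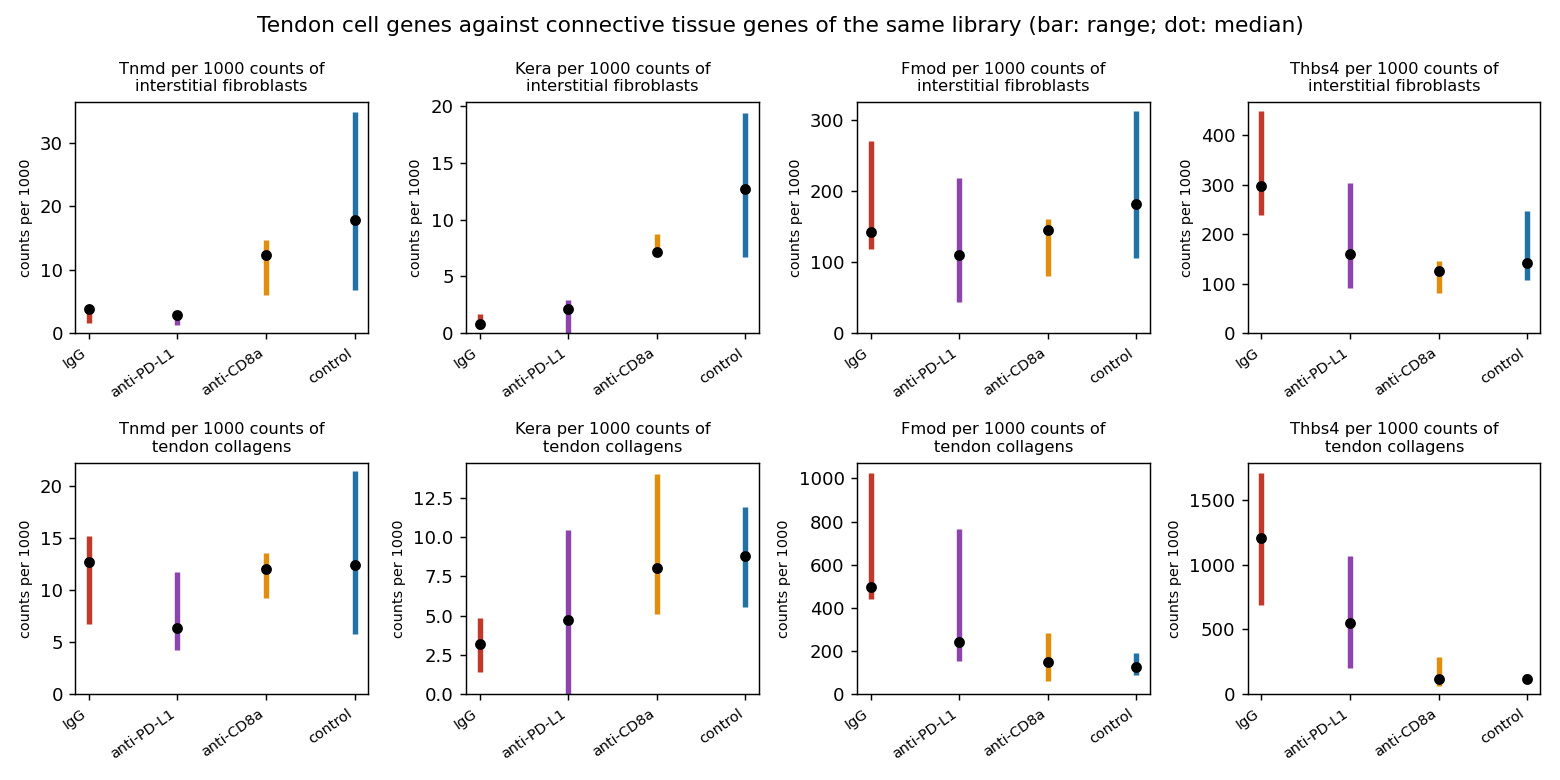
Counts of Tnmd, Kera, Fmod and Thbs4 per 1000 counts of the interstitial fibroblast list (upper row) and of the tendon collagen list (lower row), by group, with bars from the lowest to the highest library and a dot at the median (IgG n = 4, anti-PD-L1 n = 3, anti-CD8a n = 3, control n = 5). Tnmd and Kera stay low in IgG and anti-PD-L1 against fibroblast counts, while Fmod and Thbs4 stand high in IgG against collagen counts.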

How the data were processed

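Libraries were made with a directional MGIEasy kit, per the labels' protocols. The submitters' processing notes name Trim Galore, STAR 2.7.9a and RSEM 1.3.3. The genome build, annotation and strand setting are not given in the sources used here. The deposited values are RSEM expected counts and TPM for 55416 genes, of which 52083 carried a symbol. Between 19.8% and 22.8% of the non-zero expected counts of a library were fractional, because RSEM shares ambiguous reads out, and all were rounded.

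Groups were taken from the sample titles. The 4 groups entered 1 fit in edgeR 4.0.16 (R 4.3.3) with TMM scaling, filterByExpr, and the quasi-likelihood test, adjusted by Benjamini-Hochberg over 14372 genes (residual degrees of freedom 11). The SE was taken from the log2 fold change and the F of the test. Log2 CPM, used for the principal components and the correlations, had a prior count of 2. The fit was tested on simulated data in which 200 genes were changed, as many up as down. In IgG against control 8410 genes were called, and the simulation does not cover a change of that extent. Intervals and floors cover counting error only. Fold changes of low counts depend on the prior count of the edgeR fit, which was left at its default.

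No litter, cage, day or batch is given. Libraries with the same replicate number did not vary together, so the comparisons are unpaired. Alternatives were upper-quartile and RLE scaling, DESeq2 1.42.0, limma 3.58.1 on log2(TPM + 0.1), other filters, fits of 2 groups, a replicate block and leaving out each library. Setting aside replicate 2 of IgG and anti-PD-L1 was chosen after seeing the data.

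The 8 members and all gene lists were chosen with earlier results of these data known. Beside the members, up to 3 called genes of largest change with a mean of at least 1 CPM were named per list in the comparisons of IgG with control and of each other antibody with IgG, or the gene of smallest p where none was called. Acsf2, Bop1 and AC148004.2 were named because they overlap a member. In IgG against control, Thbs2 and Thbs3 were named as thrombospondins. Gdf5, named for its smallest p in anti-PD-L1 against IgG, is also given in IgG against control and in anti-CD8a against IgG. Promoter sequences are from RefSeq (GRCm38.p6).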

Additional observations from a re-analysis of the deposited data

Results flagged for a closer look

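Chad in IgG replicate 1 stood at 0.372 CPM, below 1.38, 1.58 and 1.59 CPM in the other IgG libraries. Its distance to the nearest library was 0.832 of the range of the group. The members were examined in this way in 16 groups of at least 4 libraries, of which 1 stood out, and chance gives about 1 in 20. The call of Chad in IgG against control held without that library, and its call in anti-CD8a against IgG was lost (adjusted p = 0.0563).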

How the results depend on the processing

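Under every alternative tried, Tnmd, Kera, Chad and Comp kept their direction and their call in IgG against control, as did Fmod. Leaving out 1 library gave 5 to 7 members lower in IgG against control, 3 to 5 lower in anti-PD-L1 against control, 3 to 4 higher in anti-CD8a against IgG and 0 to 2 lower in anti-PD-L1 against anti-CD8a. When only the 2 groups were fitted, 1 member was lower in anti-PD-L1 against anti-CD8a. With both libraries numbered 2 set aside, 1 member, Scx, was higher in anti-PD-L1 against IgG (1.05, adjusted p = 0.0372). With limma on TPM, 1 member, Mkx, was lower in anti-CD8a against IgG (-0.87, adjusted p = 0.0295).

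Values that changed sign were called in neither setting. For Mkx these were 0.39 in IgG against control and 0.18 in anti-PD-L1 against control with limma, 0.068 with upper-quartile scaling and 0.031 with libraries set aside in anti-PD-L1 against IgG, and 0.18 and 0.043 for those settings in anti-CD8a against IgG. In anti-PD-L1 against anti-CD8a, Mkx was at -0.11 with upper-quartile scaling, -0.037 with RLE scaling and with DESeq2, -0.048 with 2 groups and -0.011 with libraries set aside. Thbs4 in anti-PD-L1 against IgG was at -0.034 with RLE scaling and with DESeq2, -0.0075 with the filter at 1 CPM, -0.10 with the replicate block and -0.25 with libraries set aside. Scx with libraries set aside was at 0.17 in anti-PD-L1 against control and 0.35 in anti-PD-L1 against anti-CD8a. Comp was at 0.32 in anti-CD8a against control with limma, and Chad at -0.0031 in anti-PD-L1 against IgG with the replicate block.

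Leaving out 1 library moved Scx between -1.32 and 0.18 in anti-PD-L1 against control, -0.55 and 0.95 in anti-PD-L1 against IgG and -1.15 and 0.35 in anti-PD-L1 against anti-CD8a. It moved Comp between -0.34 and 0.20 in anti-CD8a against control, Fmod between -0.62 and 0.077 in anti-PD-L1 against anti-CD8a, and, in anti-PD-L1 against IgG, Tnmd between -0.0042 and 0.86, Chad between -0.054 and 0.90 and Thbs4 between -0.22 and 0.15. Mkx ranged between -0.17 and 0.14 in anti-PD-L1 against IgG, -0.38 and 0.17 in anti-CD8a against IgG and -0.20 and 0.35 in anti-PD-L1 against anti-CD8a.

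Same-numbered libraries of 2 groups correlated best in 2 of 19 pairs, with correlations of -0.390 to 0.222. The replicate block added calls in anti-PD-L1 against control, Comp (-1.61, adjusted p = 0.0125) and Thbs4 (-0.79, adjusted p = 0.0294), and lowered the genes called in anti-PD-L1 against IgG to 69, against 791. That count was 1787 with DESeq2, 37 with 2 groups, 4215 with libraries set aside and 147 to 2712 leaving out 1 library. It was 0 to 68 in anti-CD8a against control, against 2. In anti-PD-L1 against anti-CD8a, 2836 genes were called, against 1712 to 1758 with 2 groups, the block or libraries set aside and 1226 without anti-PD-L1 replicate 2. In anti-PD-L1 against control, 4988 were called, and 3013 without anti-PD-L1 replicate 2. Upper-quartile scaling and limma on TPM moved the share of called genes that were higher. In IgG against control, 51.5% were higher, against 37.0% with upper-quartile scaling and 65.3% with limma on TPM, where the median over all genes was -0.27 and 0.18. That share was 44.5% and 87.9%, against 59.9%, in anti-PD-L1 against control, and 85.2% and 97.8%, against 71.9%, in anti-PD-L1 against IgG. It was 64.5% and 33.9%, against 48.3%, in anti-CD8a against IgG, and 45.1% and 90.2%, against 61.3%, in anti-PD-L1 against anti-CD8a.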

Other observations

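RSEM's gene length, which enters TPM and not the counts, varied between libraries for Comp and Mkx, as it follows the mix of isoforms estimated in each library. For Comp it was 1978 to 2416 bases in IgG, 1303 to 2416 in anti-PD-L1, 1319 to 2416 in anti-CD8a and 1494 to 2416 in control. For Mkx it was 1160 to 3650 bases in IgG, 1945 to 3650 in anti-PD-L1, 3650 in every anti-CD8a library and 2312 to 3650 in control. Lengths were constant for Tnmd, Kera and Chad. On TPM, Mkx averaged 0.46 ± 0.09 in IgG, 0.39 ± 0.13 in anti-PD-L1, 0.21 ± 0.07 in anti-CD8a and 0.34 ± 0.13 in control, where its CPM values overlapped between all groups.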
